A study of Homo sapiens with 6 samples.

Results

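In SH-SY5Y cells that overexpressed *Esrrg*, 10 genes that the transcription factor p53 is known to activate were followed. They are *CDKN1A*, *BTG2* and *GADD45A* (cell cycle arrest), *MDM2* (feedback on p53), *FAS* (a death receptor), *SESN1*, *TP53I3* and *FDXR* (redox and metabolism), *RRM2B* (DNA building blocks) and *ZMAT3* (RNA binding). They were chosen by name as p53 targets, and make up 10 of the 67060 genes in the count table. All 10 were found by matching Ensembl identifiers to GENCODE symbols, and all 10 passed the filter on low counts.

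SH-SY5Y is a human neuroblastoma line, which the labels describe as neuronal progenitor. Cells were infected for 24 h with 0.5 ul of adenovirus, either Ad CMV GFP as the control or Ad CMV 3xFlag-*Esrrg*, which carries the mouse *Esrrg* coding sequence with a 3xFlag tag behind the CMV promoter. Each group had 3 libraries of rRNA-depleted total RNA, which the labels number 1, 3 and 4 (Ad CMV GFP) or 2, 3 and 4 (Ad CMV 3xFlag-*Esrrg*). Both groups received a virus, and no uninfected cells were analysed here. The labels do not say whether the libraries came from separate cultures, so p-values measure only the spread between these samples, which may be technical. In bulk RNA, fewer cells that express a gene and less of its RNA per cell cannot be told apart.

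p53 is held at a low level by the ubiquitin ligase MDM2, accumulates after DNA damage and other stress, and binds DNA as a tetramer at a pair of decamer repeats. The genes it activates include brakes on the cell cycle, apoptosis genes, metabolic enzymes and *MDM2* itself, which closes a negative feedback loop. ERRγ, the product of *Esrrg*, is an orphan nuclear receptor best known for genes of mitochondrial metabolism, and it binds the response element TNAAGGTCA.

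The p53 site is the sequence that p53 binds in its direct targets, so the best match within 5000 bases of the start of each gene's canonical transcript is shown for 6 of the 7 genes that have one. The search was by name for the p53 full site without a spacer, on both strands, with the core C and G of each repeat required and at most 2 mismatches elsewhere. Sequences are from GRCh38, 5′ to 3′ on the strand of the gene, and capitals mark the 4 core bases of each repeat.
CDKN1A: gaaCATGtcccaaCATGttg
BTG2: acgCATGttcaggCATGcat
GADD45A: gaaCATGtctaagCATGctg
MDM2: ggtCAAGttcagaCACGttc
FAS: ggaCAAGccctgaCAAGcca
ZMAT3: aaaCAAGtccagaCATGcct

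The *CDKN1A* match (chr6:36676449-36676468) lay at position -2256 from the start and the *BTG2* match (chr1:203303642-203303661) at -1868, each with 2 mismatches. The *GADD45A* match (chr1:67686775-67686794) was in an intron, 1584 bases downstream, with 1 mismatch. The *MDM2* match (chr12:68808923-68808942) was also intronic, 756 bases downstream, with 2 mismatches. The *FAS* match (chr10:88991309-88991328), 520 bases downstream with 2 mismatches, fell in an exon of a transcript other than the canonical one. *ZMAT3* had the only match without a mismatch, in an intron (chr3:179070188-179070207). *RRM2B* also had a match with 1 mismatch, and *FDXR*, *SESN1* and *TP53I3* had no match with 2 mismatches or fewer. In all, 7 of the 10 genes had a match, against 7.65% of the windows around 20046 protein-coding genes, a share that the choice of known p53 targets raises. These matches describe the letters in the window and not binding.

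The ERRγ element TNAAGGTCA, searched in the same windows on both strands, was present for 1 of the 10 genes, against 33.3% of all protein-coding genes. That gene was *MDM2*, with 3 matches, shown with 10 bases on each side and the element in capitals, on the strand of the match and with its position from the start.
MDM2, at -4765: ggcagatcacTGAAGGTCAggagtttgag
MDM2, at -3323: tgcatgggatTCAAGGTCAcagtgggcgg
MDM2, at 592: gagttcagggTAAAGGTCAcgggggccgg

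They lie at chr12:68803398-68803426, chr12:68804840-68804868 and chr12:68808755-68808783. In RefSeq promoters (GRCh38.p14), where 8 of the 10 genes were found by symbol with 17 promoters between them, none held TNAAGGTCA, against 0.951% of all 35116 promoters. No match says only that these letters are not in the window.

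The libraries were checked first. Human *ESRRG* held 2357, 2796 and 2876 counts with Ad CMV GFP and 15228, 25994 and 26497 counts with Ad CMV 3xFlag-*Esrrg*, which is a log2 fold change of 3.02 (standard error, SE, 0.14). Reads of the mouse transgene and of the cells' own gene cannot be told apart in these counts. Counts on genes ran from 24969759 to 40859666 per library. The share of reads that HTSeq assigned to no feature was 51.3% to 52.2% with Ad CMV GFP, and 46.6%, 31.6% and 29.5% in Ad CMV 3xFlag-*Esrrg* replicates 2, 3 and 4, so replicate 2 lay between the control group and the other two. Of 8 neuroblastoma markers 7 were tested, 1 was called higher (*PHOX2A*) and 2 lower (*DBH* among them), and *TH* had 0 counts in every library. *HAND2*, *GATA3* and *ISL1* were present in both groups, from 74.9 CPM for *ISL1* with *Esrrg* to 367 CPM for *HAND2* in the controls. Among 6 markers of other cell types, the fibroblast markers *COL1A1* (390 and 348 normalized counts per 1000000, CPM) and *DCN* (78.3 and 46.3 CPM) were well above 0 in the GFP and *Esrrg* groups respectively. *COL1A2*, *PTPRC*, *PECAM1* and *EPCAM* had mean values under 3 CPM in both groups. Of these 6 markers 1 was called higher (*PECAM1*) and 2 lower (*DCN* and *COL1A2*).

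Of the 10 p53 targets, 4 were called higher and none lower with Ad CMV 3xFlag-*Esrrg*. The 4 were *CDKN1A* (4.31-fold), *BTG2* (3.91-fold), *FDXR* (3.46-fold) and *GADD45A* (2.08-fold). *MDM2*, the feedback inhibitor of p53, had a fold of 1.06. *RRM2B* and *ZMAT3* lay below the control values, at 0.792 and 0.775 of the GFP level in the fit.
A call here means a Benjamini-Hochberg adjusted p below 0.05 over all 24500 tested genes in edgeR's quasi-likelihood test and a change of at least 1.5-fold. By this rule 17.3% of all tested genes were called higher and 16.8% lower, and of protein-coding genes, the class of all 10, 25.9% were called higher and 12.4% lower. The median log2 fold change was 0.43 for the 10 genes, −0.10 for all tested genes and 0.12 for tested protein-coding genes. With 4 of 10 called higher, the count of called genes stands beside a broad background of change, and the sizes for 3 of them stood near its upper end. *CDKN1A*, *BTG2* and *FDXR* were at percentiles 99.3, 99.2 and 98.8 of the log2 fold changes of all tested genes, and *GADD45A* at 93.1.

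**Figure D1:**
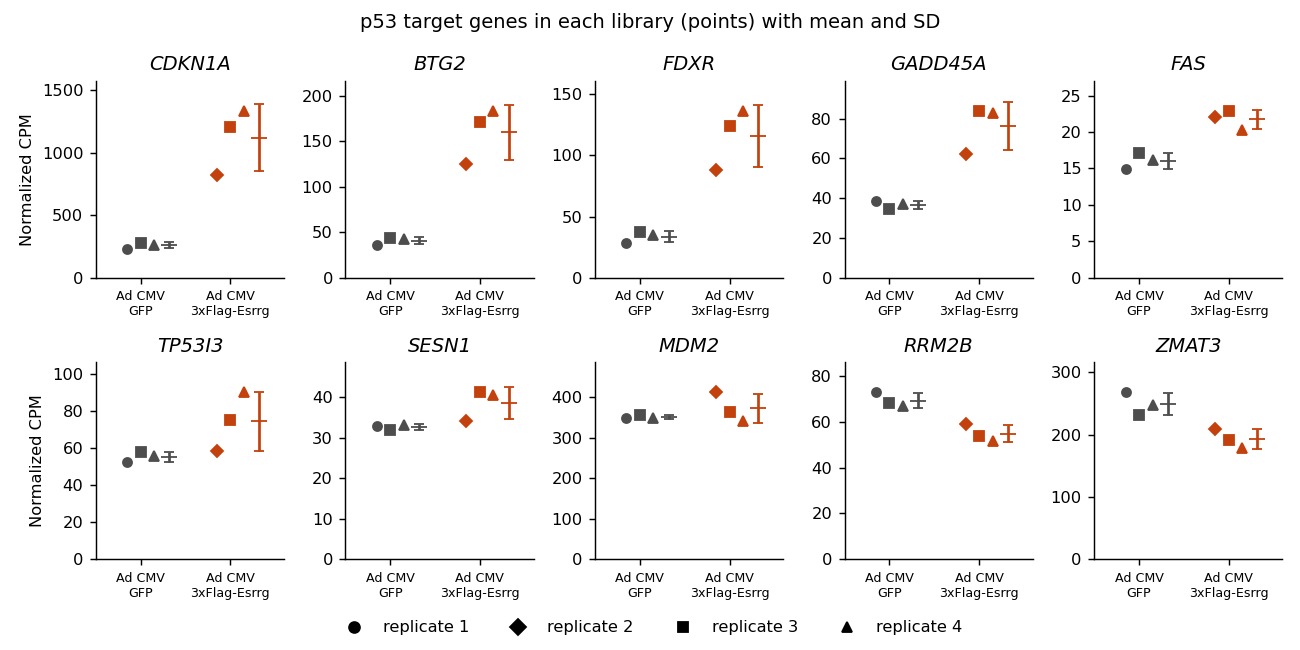
Each panel plots the TMM-normalized counts per 1000000 (CPM, vertical axis from 0) of 1 p53 target gene in the 3 Ad CMV GFP libraries (grey) and the 3 Ad CMV 3xFlag-Esrrg libraries (orange), with marker shape for the replicate number and the bar for mean and SD. The groups are separate for 9 of the 10 genes, and for *MDM2* they overlap.

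Among the 3 cell cycle arrest genes, all 3 were called higher, against 25.9% of all tested protein-coding genes. Exons of all 3 had over 50% GC. Of tested protein-coding genes, 38.5% from 50% to 55% GC and 44.7% above 55% were called higher. *CDKN1A* (ENSG00000124762, chr6:36676460-36687337) encodes p21, the inhibitor of cyclin-dependent kinases. Its level was 233, 281 and 265 CPM with Ad CMV GFP and 819, 1203 and 1332 CPM with Ad CMV 3xFlag-*Esrrg*, that is 260 ± 24.4 against 1118 ± 267 CPM (SD, n = 3 each). The lowest *Esrrg* library, replicate 2, was well above the highest control. Exons of other genes, all on the opposite strand, cover 4.87% of its exon bases. The log2 fold change was 2.11 (SE 0.18, 95% interval 1.72 to 2.50, edgeR's adjusted p = 2.1e-05).
*BTG2* (ENSG00000159388, chr1:203305491-203309602), an antiproliferative protein that also works in the decay of mRNA, stood at 36.4, 43.8 and 42.5 CPM in the controls and at 125, 171 and 183 CPM in the *Esrrg* libraries. The groups were again far apart, with a log2 fold change of 1.97 (SE 0.15, 95% interval 1.64 to 2.29, edgeR's adjusted p = 1.0e-05).
*GADD45A* (ENSG00000116717, chr1:67685201-67688334), a stress sensor that acts on the G2/M transition and DNA repair, was at 38.6, 34.5 and 36.9 CPM in the controls and at 62.4, 83.9 and 83.0 CPM with *Esrrg*. The control libraries lay close together and the *Esrrg* libraries above them, with a log2 fold change of 1.06 (SE 0.12, 95% interval 0.79 to 1.33, edgeR's adjusted p = 0.00012).

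*MDM2* (ENSG00000135679, chr12:68808177-68845544) carried both a p53 site and the 3 TNAAGGTCA matches shown above. It measured 347, 356 and 347 CPM in the controls and 411, 364 and 340 CPM in the *Esrrg* libraries. The *Esrrg* values lay on both sides of the controls, so this was the 1 gene of the 10 with overlapping groups. Its log2 fold change was 0.09 with a 95% interval from −0.15 to 0.32 (edgeR's adjusted p = 0.52), an interval that leaves out a 1.5-fold change in either direction. The sign is not fixed. It was −0.22 with library size as the only scaling and −0.04 with protein-coding genes only. Corrected for GC content and length it was 0.29 (edgeR's adjusted p = 0.0098). When reads assigned to no feature entered as a covariate it was 0.31 (edgeR's adjusted p = 0.032), and both values were under the fold limit. Exons of other genes cover 14.7% of its exon bases, and 11.1% are covered on the opposite strand.

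*FAS* (ENSG00000026103, chr10:88953813-89029605), the cell surface receptor for FAS ligand, was the lowest of the 10 in CPM. It had 14.9, 17.1 and 16.2 CPM with Ad CMV GFP and 22.03, 22.9 and 20.3 CPM with Ad CMV 3xFlag-*Esrrg*. The groups did not overlap and the adjusted p was 0.0057 in edgeR, but the log2 fold change of 0.44 (SE 0.10, 95% interval 0.21 to 0.67) was under the fold limit.

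Of the 3 redox and metabolism genes, 1 was called higher, which is near the 25.9% of all tested protein-coding genes. *FDXR* (ENSG00000161513, chr17:74862497-74873031) encodes ferredoxin reductase, which passes electrons from NADPH to mitochondrial ferredoxins. It was at 28.5, 37.3 and 34.8 CPM in the controls and at 87.8, 124 and 136 CPM with *Esrrg*. All *Esrrg* libraries were clear of the controls, with a log2 fold change of 1.79 (SE 0.16, 95% interval 1.43 to 2.16, edgeR's adjusted p = 3.5e-05). It had neither a p53 site with 2 mismatches or fewer nor a TNAAGGTCA element in the windows searched.
*TP53I3* (ENSG00000115129, chr2:24077433-24085861), also known as PIG3, encodes a quinone oxidoreductase. It was at 52.5, 57.9 and 55.7 CPM in the controls and at 58.4, 75.0 and 90.1 CPM with *Esrrg*, where replicate 2 lay just above the highest control. Its log2 fold change was 0.43 (SE 0.14, edgeR's adjusted p = 0.028), below the fold limit. Without Ad CMV 3xFlag-*Esrrg* replicate 2 it was 0.68 and *TP53I3* was called.
*SESN1* (ENSG00000080546, chr6:108984309-109094846), a sestrin that restrains mTORC1 signalling, was at 33.0, 31.9 and 33.2 CPM in the controls and at 34.1, 41.2 and 40.7 CPM with *Esrrg*. Replicate 2 was again next to the controls. The log2 fold change was 0.24 (SE 0.10, edgeR's adjusted p = 0.069), and it was −0.09 with library size as the only scaling.

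The other two genes lay below the controls. *RRM2B* (ENSG00000048392, chr8:102204502-102238961) encodes the p53-inducible small subunit of ribonucleotide reductase, which makes deoxynucleotides for repair and for mitochondrial DNA. It was at 72.9, 68.2 and 66.8 CPM in the controls and at 59.0, 54.1 and 51.5 CPM with *Esrrg*. *ZMAT3* (ENSG00000172667, chr3:178960121-179072215), a zinc finger protein that binds RNA and acts in splicing, was at 268, 231 and 248 CPM in the controls and at 210, 191 and 178 CPM with *Esrrg*. For both genes every *Esrrg* library was below every control library. The log2 fold changes were −0.34 (SE 0.093, edgeR's adjusted p = 0.013) for *RRM2B* and −0.37 (SE 0.10, edgeR's adjusted p = 0.015) for *ZMAT3*, neither of which reached 1.5-fold. With library size as the only scaling they were −0.65 and −0.68 and both genes were called lower.

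Leaving out the fold limit, 6 of the 10 genes were higher and 2 lower at an adjusted p below 0.05, where 24.3% of all tested genes were higher and 23.5% lower (47.8% in all). By the call with the fold limit, 34.1% of all tested genes changed in either direction. Separate groups were seen for 9 of the 10 genes, against 58.1% of all tested genes and 9659 of the 13746 tested protein-coding genes. Genes with and without a p53 match were found among those called higher. Of the 7 genes with a match, 3 were called higher (*CDKN1A*, *BTG2* and *GADD45A*), and *ZMAT3*, with the best match, was below the controls. Of the 3 genes without one, *FDXR* was called.

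The counts of each gene were also set against those of *MDM2* in the same library, a ratio that needs no scaling between libraries. It is not corrected for GC content, and *MDM2* is itself a member whose change depended on the fit. Exons of *MDM2* are 39.5% GC, against 57.5% for *CDKN1A*, 50.6% for *BTG2*, 60.4% for *FDXR* and 57.8% for *GADD45A*. *CDKN1A* held 0.671, 0.789 and 0.763 counts per *MDM2* count in the controls and 1.99, 3.31 and 3.91 in the *Esrrg* libraries, a geometric mean ratio of 3.996. *CDKN1A* was thus below *MDM2* in counts in every control library and above it in every *Esrrg* library. The same ratio of ratios was 3.66 for *BTG2*, 3.24 for *FDXR*, 1.95 for *GADD45A* and 1.28 for *FAS*, and it was 0.748 for *RRM2B* and 0.732 for *ZMAT3*.
For each of these 7 genes the groups did not overlap, and a two-sided exact permutation test gave p = 0.1, the smallest value that 3 libraries against 3 allow. For *TP53I3* (1.25) and *SESN1* (1.11) the groups overlapped (p = 0.4, the same exact test). These p-values were not adjusted over the 9 genes, and the ratios share the *MDM2* counts.

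**Figure D2:**
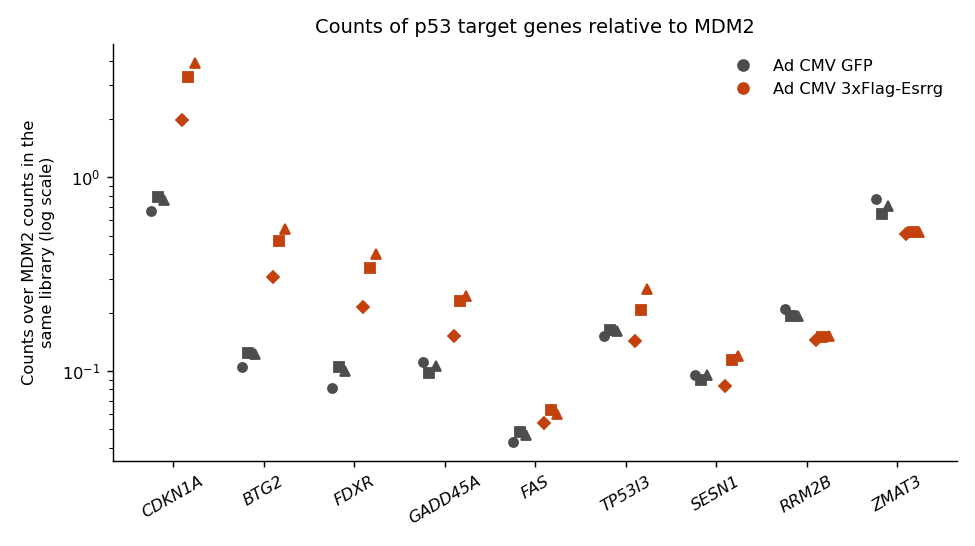
Counts of each p53 target gene divided by the *MDM2* counts of the same library, on a log axis without unit, for Ad CMV GFP (grey) and Ad CMV 3xFlag-Esrrg (orange); circles, diamonds, squares and triangles are replicates 1, 2, 3 and 4. *CDKN1A* goes from 0.671 to 0.789 in the controls to 1.99 to 3.91 with Esrrg, while *RRM2B* and *ZMAT3* lie lower with Esrrg than in the controls.

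Within the *Esrrg* group, all 4 called genes were lowest in replicate 2, the *Esrrg* library with the largest share of reads assigned to no feature, and 3 of the 4 were highest in replicate 4. The range was 819 to 1332 CPM for *CDKN1A*. Human *ESRRG*, in CPM, was also lowest in replicate 2. Without that library the log2 fold changes were 2.40 for *CDKN1A*, 2.22 for *BTG2*, 2.06 for *FDXR* and 1.29 for *GADD45A*.
With the share of reads assigned to no feature as a covariate they were 1.44, 1.44, 1.19 and 0.65 in the same order, and all 4 genes were still called. That share was at least 51.3% with Ad CMV GFP and at most 46.6% with *Esrrg*, so this fit cannot fully separate it from the virus. The same covariate took *TP53I3* to −0.11 and *SESN1* to −0.01, *RRM2B* and *ZMAT3* both to −0.17, *MDM2* to 0.31 and *FAS* to 0.48, and none of these 6 genes was called.

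GC content moved with the changes in these libraries. Among tested protein-coding genes, 8.8% of those under 45% exon GC were called higher, 24.7% of those from 45% to 50%, 38.5% of those from 50% to 55% and 44.7% of those above. Of the 10 p53 targets, 5 had over 50% GC in their exons, from 50.6% for *BTG2* to 60.4% for *FDXR*, and 4 of these 5 were called higher. The exception was *TP53I3* at 56.1%. The 5 others, from 37.5% for *RRM2B* to 41.5% for *FAS*, had none called.
With GC content and gene length corrected for in each library, the log2 fold changes were 1.65 for *CDKN1A*, 1.73 for *BTG2*, 1.28 for *FDXR* and 0.69 for *GADD45A*, and all 4 remained called. *FAS* had 0.75 in that fit and was also called. *TP53I3* went to 0.05, *MDM2* to 0.29, *SESN1* to 0.40, and *RRM2B* and *ZMAT3* both to −0.14.

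**Figure D3:**
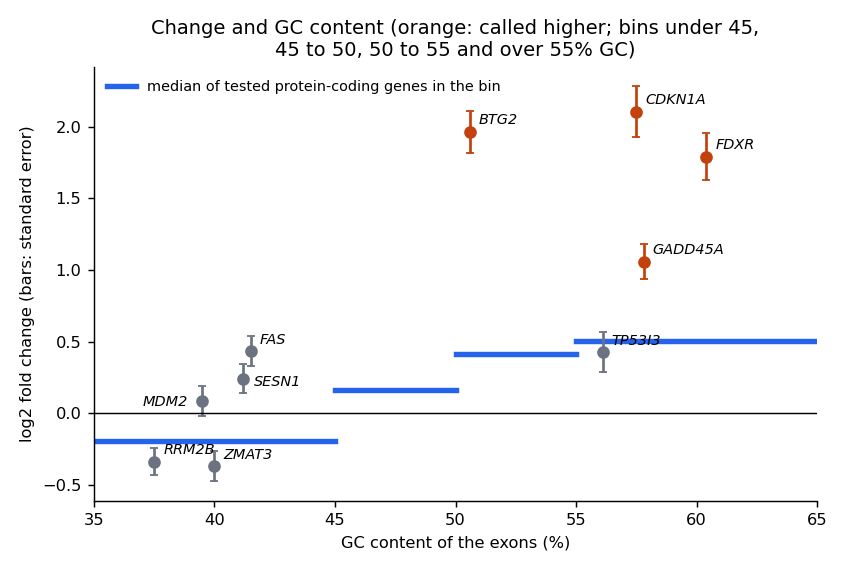
The log2 fold change of each p53 target gene (vertical axis, bars for the standard error) against the GC content of its exons in percent; orange points were called higher and grey points were not, and blue lines give the median of tested protein-coding genes in 4 bins of GC content. The 4 called genes are at 50.6% GC or more and lie above the median of their bin, and *TP53I3* at 56.1% does not.

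**Figure D4:**
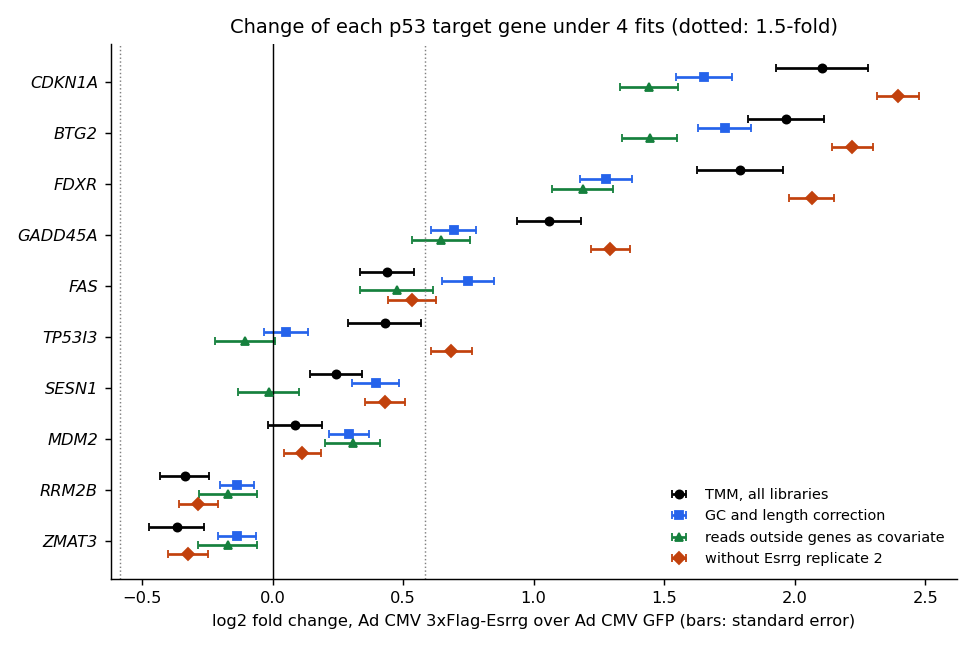
The log2 fold change of each p53 target gene, Ad CMV 3xFlag-Esrrg over Ad CMV GFP, with bars for the standard error in 4 fits: TMM scaling with all libraries (black), GC and length correction (blue), reads assigned to no feature as a covariate (green) and without Ad CMV 3xFlag-Esrrg replicate 2 (orange). *CDKN1A*, *BTG2*, *FDXR* and *GADD45A* lie beyond the dotted 1.5-fold line in all 4 fits.

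Levels of different genes were compared per length, as transcripts per 1000000 (TPM) over the union of each gene's exons. In the Ad CMV GFP group *CDKN1A* was the highest of the 10 at 310 ± 19.02 TPM (SD, n = 3), followed by *MDM2* at 151 ± 5.26. *TP53I3* (85.7), *ZMAT3* (79.0) and *GADD45A* (68.3) came next, and each overlapped its neighbour in this order. *BTG2* (53.01) and *RRM2B* (46.1) also overlapped, and *FDXR* (33.2), *SESN1* (16.1) and *FAS* (1.96) followed. The exons of *FAS* add up to 29313 bases over all transcripts, and with the canonical transcript alone, a length chosen after seeing the data, it stood at 10.7 TPM, still the lowest. With canonical lengths *FDXR* was at rank 6, ahead of *BTG2* and *RRM2B*.
With Ad CMV 3xFlag-*Esrrg*, *CDKN1A* was again the highest in each library (799 to 904 TPM), and the order below it depended on the length used. Over union exons *BTG2* had 135, 123 and 135 TPM in replicates 2, 3 and 4, and *MDM2* had 147, 87.1 and 83.3, so *MDM2* was above *BTG2* in replicate 2 and below it in the others. Over the canonical transcripts *FDXR* had 95.9, 93.3 and 103 TPM and *BTG2* had 92.7, 86.8 and 93.7, which overlap. TPM values were not compared between groups, because small noncoding RNA genes held 12.4% to 13.9% of all TPM in the controls and 16.5%, 35.7% and 32.2% in *Esrrg* replicates 2, 3 and 4.

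The wider pathway was read from 4 lists. Of 44 other p53 targets, 38 were tested, 19 were called higher and 1 lower, with a median log2 fold change of 0.57. Of all tested protein-coding genes, 25.9% were called higher and 12.4% lower, with a median of 0.12. Apoptosis genes gave 6 of these 19 higher genes, out of 9 tested. The protein-coding share was not matched for GC content, and it rose from 8.8% under 45% GC to 44.7% above 55%. With GC content and length corrected for, 14 of the other targets were called higher. With the share of reads assigned to no feature as a covariate, 11 were. *TNFRSF10B*, a TRAIL receptor, went from 139 ± 8.58 to 423 ± 52.7 CPM (SD, n = 3 each; log2 fold change 1.61, SE 0.12). *GDF15*, a secreted stress cytokine, had a log2 fold change of 2.71 (SE 0.17). *RPRM*, an inhibitor of the G2/M transition, had 3.83 (SE 0.41), which rests on 4, 5 and 1 counts in the controls against 35, 54 and 63. *APAF1*, the scaffold of the apoptosome, was the gene called lower, at −0.62 (SE 0.12), just past the fold limit, and it was not called without *Esrrg* replicate 3 or 4.
Of the 6 genes not tested, *SESN2*, the paralog of *SESN1*, had 0 counts in every library, as did *TH* above. The annotation release behind the counts is not given, so 0 counts do not show that these RNAs were absent.

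Genes that control p53 formed the next list. Of 23 p53 family members and regulators, 22 were tested, 3 were called higher and 2 lower, and the median was 0.07. Among all tested protein-coding genes 25.9% were called higher and 12.4% lower, with a median of 0.12. Neither count of regulators was above its share.
*CDKN2A*, which has the MDM2 inhibitor ARF among its products, had 1.41 (SE 0.20), and *KAT5*, an acetyltransferase that acts on p53, had 0.74 (SE 0.16). Counts are per gene and do not separate the transcripts of *CDKN2A*. *PPP1R13B*, whose product ASPP1 directs p53 to apoptosis genes, was called lower at −1.05 (SE 0.097). So was *ATM*, the kinase that signals double-strand breaks, at −0.81 (SE 0.15). With GC content and length corrected for, *KAT5* was at 0.27 and *ATM* at −0.40, and neither was called. *MDM4*, the paralog of *MDM2*, was not called, at −0.20 (SE 0.10, edgeR's adjusted p = 0.13). Opposite-strand exons cover 38.6% of the exon bases of *KAT5* and 15.3% of those of *CDKN2A*, and the strand setting of the counting is not given in the sources used here.

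Partners and paralogs of the 10 genes gave 4 higher and 1 lower of 16 tested, with a median of 0.34. The count of higher genes is near the share of 25.9% among protein-coding genes. *FDX1*, the ferredoxin that takes electrons from FDXR, was called higher at 0.93 (SE 0.14). So were *FADD*, the adaptor of FAS, at 1.45 (SE 0.21) and *TOB2*, a relative of *BTG2*, at 0.71 (SE 0.13). Opposite-strand exons cover 59.2% of the exon bases of *FADD*. *SESN3*, the paralog of *SESN1*, fell from 411 ± 37.2 to 191 ± 29.8 CPM (SD, n = 3 each), a log2 fold change of −1.10 (SE 0.13).
The last list holds 15 cell cycle genes that p21 is known to repress through the DREAM complex. All 15 were tested, 4 were called higher and 1 lower, and the median was 0.31. The mitotic activator *CDC20* (0.79, SE 0.15), the replicative helicase subunit *MCM5* (0.70, SE 0.13) and the cyclin *CCNB1* (0.62, SE 0.16) were called higher, and the topoisomerase *TOP2A* (−0.77, SE 0.099) was called lower. *MCM5* and *CCNB1* were not called without Ad CMV GFP replicate 1, and *CCNB1* also not without *Esrrg* replicate 3 or 4. These counts are near the shares among protein-coding genes, 25.9% higher and 12.4% lower, and their direction depended on the scaling. Scaling by library size alone gave 0 higher and 3 lower, protein-coding genes only gave 1 higher and 2 lower, and leaving out *Esrrg* replicate 2 gave 7 higher.

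**Figure D5:**
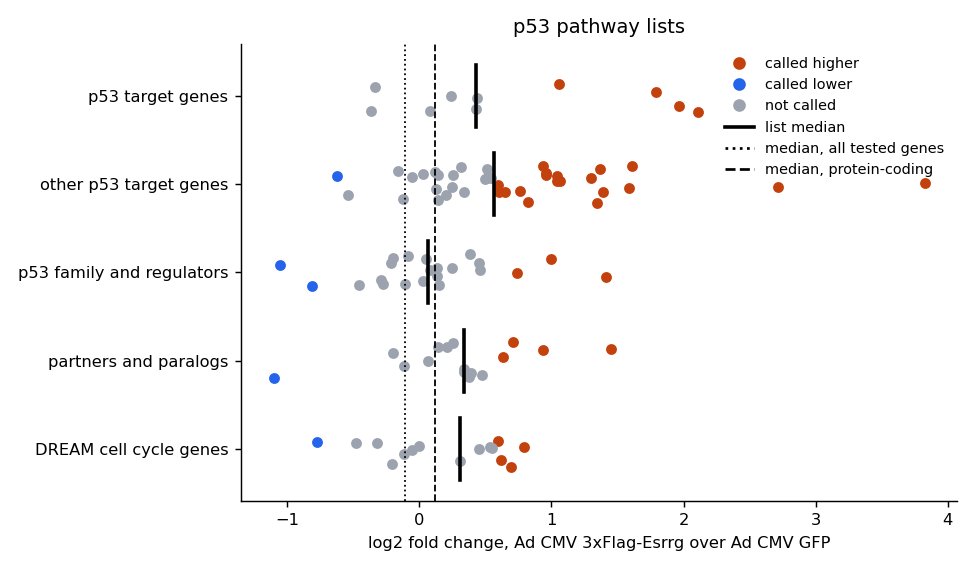
Each point is the log2 fold change of 1 tested gene, Ad CMV 3xFlag-Esrrg over Ad CMV GFP, in the 10 p53 target genes and 4 further lists; orange points were called higher, blue points lower and grey points were not called, and black bars mark list medians beside the medians of all tested (dotted) and protein-coding (dashed) genes. The list of other p53 targets has 19 genes called higher and 1 lower, and the p53 regulators have 3 and 2.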

How the data were processed

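The table deposited by the authors holds raw counts per gene from HTSeq for 6 libraries. The submitters' processing notes name Trim Galore 0.6.7, STAR 2.7.9a, HTSeq 0.11.3 and GRCh38. The annotation release and strand setting are not given in the sources used here. Identifiers were matched to GENCODE release 44, which held 60419 of 67060 genes (90.1%), and 5 summary entries were left out of the library sizes.

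Counts were fitted with edgeR 4.0.16 in R 4.3.3 over 24500 genes that passed filterByExpr, with TMM scaling and the quasi-likelihood test. The standard error is the size of a log2 fold change divided by the root of its F statistic. Alternatives were DESeq2 1.42.0, other scalings, filters and cutoffs, each library left out, a replicate block, smooth curves for GC content and length (mgcv 1.9.3), and the share of reads assigned to no feature as a covariate. On data simulated for this comparison (24500 genes) edgeR recovered 187 of 200 changed genes with 6 false calls. The simulation used the same dispersion for all genes and no GC trend. These figures are not error rates for the real data, where 34.1% of tested genes were called. From 4 lists, *MDM4* and up to 3 called genes per direction with at least 20 mean counts were named by rule, with some of the genes so selected left unreported. All 10 members are named, and *SESN2* was named after its values were seen. The cell type markers came from a list of 14 genes. The members and lists were chosen with earlier results of these data known. Python 3.11.15 was used for sequences and plots.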

Additional observations from a re-analysis of the deposited data

How the results depend on the processing

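*CDKN1A*, *BTG2*, *FDXR* and *GADD45A* were called higher under all 18 alternatives. In the fits with a replicate block the group difference rests on replicates 3 and 4 alone, as given below. The count of p53 targets called higher was 4 to 5 when 1 library was left out, and 0 were called lower. The count called lower was 2 with library size as the only scaling and 2 without the fold limit. Signs turned with the scaling or the covariate for 3 genes. *MDM2* was −0.22 with library size only and −0.045 with protein-coding genes only, *SESN1* was −0.086 with library size only and −0.015 with the covariate for reads assigned to no feature, and *TP53I3* was −0.11 with that covariate. With library size as the only scaling the median of all genes moved from −0.10 to −0.42 and that of the 10 p53 targets from 0.43 to 0.11. The share of called genes that were higher was 50.7% with TMM, 22.5% with library size only, 62.7% with DESeq2 and 61.4% in the test against a 1.5-fold threshold.

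The counts that follow, as higher and lower genes, differed more than 1.5-fold from the main fit, or were 0 in only 1 of the 2 fits. Smaller shifts are not listed. The count of other p53 targets called higher, 19 in the main fit, was 14 with library size only and with the GC and length correction. It was also 14 in the test against a 1.5-fold threshold. With protein-coding genes only it was 16, with RLE size factors 22 and with DESeq2 23. With library size only, other p53 targets gave 2 lower, regulators 5 lower, partners and paralogs 2 higher, DREAM genes 0 higher and 3 lower, and all genes 2200 higher and 7566 lower. Without the fold limit, other targets gave 2 lower, regulators 7 higher and 4 lower, partners 7 higher, and DREAM genes 7 higher and 3 lower. In the test against a 1.5-fold threshold, other targets gave 0 lower, regulators 1 lower, partners 2 higher, DREAM genes 0 higher and 0 lower, and all genes 2207 higher and 1387 lower. With protein-coding genes only, other targets gave 2 lower, partners 2 higher, DREAM genes 1 higher and 2 lower, and all genes 2814 higher and 2468 lower. With the covariate, other targets gave 11 higher and 0 lower, regulators 1 higher and 1 lower, partners 1 higher, DREAM genes 0 higher, and all genes 1773 higher and 1323 lower. With the GC and length correction, other targets gave 0 lower, partners 2 higher and DREAM genes 1 higher. DESeq2 and RLE size factors each gave 0 lower among other targets. With 1 library left out, other targets gave 0 to 1 lower (0 without *Esrrg* replicate 3 or 4), regulators 3 to 5 higher, partners 3 to 7 higher (the highest of both without *Esrrg* replicate 2) and DREAM genes 1 to 7 higher (1 without Ad CMV GFP replicate 1, 7 without *Esrrg* replicate 2). Where a single gene lost its call, the cause was not tested.

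Numbers 3 and 4 are shared between the groups, and their deviations from the group means correlated by 0.075 and −0.0001, so they were not taken as pairs. With the replicate number as a block, 4 p53 targets were called higher and 0 lower, 2 other targets were lower, and all genes gave 4742 higher and 5693 lower. Number 1 occurs only with Ad CMV GFP and number 2 only with Ad CMV 3xFlag-*Esrrg*. The block absorbs those 2 libraries, so the group difference in this fit rests on replicates 3 and 4. With the block and the GC and length correction together, 0 other targets were lower and 1 DREAM gene was higher.

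With 3 libraries per group, changes under 1.5-fold were not called whatever their adjusted p. The lowest count of the 10 genes in any library was 419, for *FAS*. Genes at 0 counts were left without a value.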
